A study of Mus musculus with 7 samples.

Results

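The interleukin-1 (IL-1) family was described in mouse brain tumours through 10 genes, taken by symbol from the 32285 genes of the deposited feature lists: the ligands Il1a, Il1b, Il18 and Il33, the inhibitors Il1rn and Il18bp, and the receptors Il1r1, Il1r2, Il18r1 and Il1rl1. The tumours were NSCG, a mouse glioblastoma line that carries mCherry and EGFRvIII and lacks Arf/Ink4a, growing in the brains of C57BL/6 mice that were 7 to 10 weeks old and wild-type by label. Whole tumours were dissociated at about day 14, at least 2 mice were pooled per library, and transcripts were counted by droplet single-cell RNA sequencing (10x Genomics). The design text calls NSCG a TIME-low model, low by its tumour immune microenvironment, and asks how tumour and immune cells adapt to immunotherapy.

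The 7 libraries formed 5 groups. UT (1 library) was untreated. IgG (2 libraries) received an IgG2b isotype antibody at 10 mg/kg. BP (2 libraries) received 5 mg/kg of the VEGF antibody B20 together with 10 mg/kg of anti-PD-L1. BPI (1 library) received BP and daily oral IPI-145, a PI3K inhibitor, at 10 mg/kg. CD40 (1 library) received an agonist antibody against CD40, 2 doses of 100 µg each. Antibody injections in the BP and BPI protocols were spaced by 3 days, and CD40 injections by 5 days. The protocols describe a gavage diluent for some isotype controls and a dendritic cell vaccine for some CD40 mice without saying which libraries these were. Because each library pools mice, a library was the replicate, and p-values measure only the spread between pooled libraries.

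IL-1α and IL-1β, the products of Il1a and Il1b, signal through the receptor Il1r1 together with the coreceptor Il1rap, and they are textbook activators of NF-κB and of endothelial and glial inflammation. Il1rn encodes a receptor antagonist that occupies Il1r1 without signalling, and Il1r2 a decoy receptor that binds IL-1 without a signalling tail. Il18 acts through Il18r1 and Il18rap on T and natural killer (NK) cells and is neutralised by the binding protein Il18bp. Il33, a nuclear alarmin, acts through Il1rl1 (ST2), which is known from mast cells, type 2 lymphocytes and a share of regulatory T cells.

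Il1a and Il1b lie next to each other on chromosome 2, on the minus strand, 54.6 kb apart, at 129299610-129309972 and 129364570-129371139 (GRCm38). Their transcripts were nevertheless found mostly in different myeloid cells here, and Il1rn, which lies on the plus strand of the same chromosome at 24336853-24351494, followed Il1b more than Il1a. For that reason the 250 bases before the start of these genes are shown, from RefSeq on GRCm38.p6. All 10 members had at least 1 such promoter, 17 in all, among 32851 in the reference table. The coordinates are chr2:129309973-129310222 (minus strand) for Il1a, chr2:129371140-129371389 (minus strand) for Il1b and chr2:24336610-24336859 (plus strand) for the most upstream of the Il1rn starts. Capitals mark matches, on either strand, to an NF-κB-type motif (GGGNNNNNCC), a PU.1-type motif (GAGGAA), an AP-1-type motif (TGANTCA) or a TATA box (TATAAA).
Il1a: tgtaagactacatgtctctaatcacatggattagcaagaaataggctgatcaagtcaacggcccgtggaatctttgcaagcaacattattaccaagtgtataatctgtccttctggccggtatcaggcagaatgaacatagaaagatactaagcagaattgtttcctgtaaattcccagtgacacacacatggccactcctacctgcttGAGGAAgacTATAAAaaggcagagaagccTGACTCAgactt
Il1b: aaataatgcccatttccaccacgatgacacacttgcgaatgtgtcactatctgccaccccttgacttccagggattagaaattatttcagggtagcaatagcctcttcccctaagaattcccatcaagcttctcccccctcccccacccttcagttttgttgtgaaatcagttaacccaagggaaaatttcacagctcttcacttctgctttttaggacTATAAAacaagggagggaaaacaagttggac
Il1rn: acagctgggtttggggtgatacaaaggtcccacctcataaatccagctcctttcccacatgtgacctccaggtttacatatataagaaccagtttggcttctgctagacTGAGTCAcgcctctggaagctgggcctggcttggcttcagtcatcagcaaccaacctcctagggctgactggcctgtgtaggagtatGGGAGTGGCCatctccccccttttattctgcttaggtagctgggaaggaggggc
In Il1a the PU.1-type match began 41 bases before the start, the TATA box 32 bases and the AP-1-type match 12 bases before it. In Il1b the TATA box began 31 bases before the start and was the only match of the 4 motifs. In Il1rn the AP-1-type match began 141 bases and the NF-κB-type match 54 bases before the start. The next Il1rn start (bases chr2:24345041-24345290) had no match of the 4 motifs. The last (chr2:24345121-24345370) had only an NF-κB-type match, 51 bases before it. Among all 32851 promoters of that length, 45.8% held the NF-κB-type motif, 23.2% the PU.1-type motif, 12.4% the TATA box and 6.75% the AP-1-type motif. The motifs can overlap one another, although none of the matches printed here does, and a match describes letters only.

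The libraries held 68997476 to 186793886 UMIs (unique molecular identifiers, 1 per counted transcript), and 48588 cells were kept after removal of 3207 predicted doublets. Clustering without the members or their pathway genes gave 46 clusters, which were named from marker genes where the markers allowed it, so a class is called "-like" throughout. The unnamed share of cells ran from 5.74% in IgG replicate 2 to 28.5% in UT. All 10 monocyte/macrophage markers were detected in that class in every library, and in BP replicate 1, the library with 27 of the 62 neutrophil-like cells, all 8 neutrophil markers were. The libraries shared 0 to 23 cell barcodes with one another. The library names run on in 2 sets, IgG replicate 1, BP replicate 2 and BPI (called set A here), and CD40 and IgG replicate 2 (set B), while UT and BP replicate 1 stand alone. Levels are given as CPM, the UMIs of a gene scaled to the total UMIs of a class in a library, and a pair of values for IgG or BP is in the order of its replicates. In 3′ UMI data levels are compared here between classes and libraries of the same gene, not between genes.

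**Figure D1:**
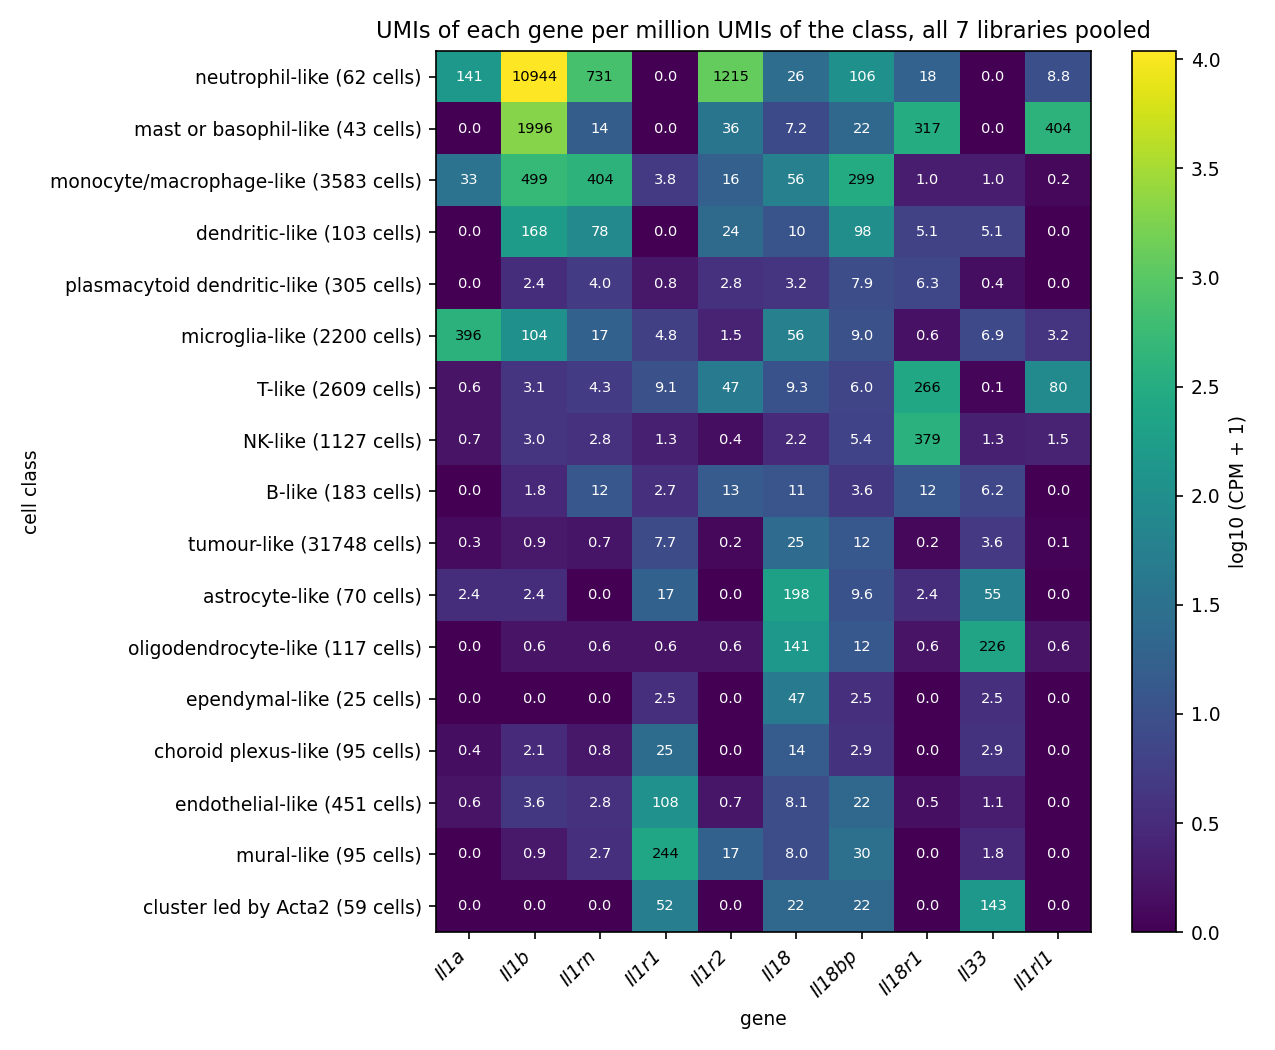
Pooled level of each member (columns) in each cell class (rows), as log10 (CPM + 1) over all 7 libraries, with the number of cells of each class. Il1b and Il1r2 are brightest (highest) in neutrophil-like cells, as is Il1rn, which rests there on BP replicate 1 (65 of 83 UMIs), Il1a in microglia-like cells, Il1r1 in mural-like cells (168 of 276 UMIs from BP replicate 1), and Il18r1 in NK-, mast or basophil- and T-like cells.

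Il1a was a microglial transcript in these tumours. Microglia-like cells held it at 292 CPM in UT, 459 and 344 in IgG, 338 and 511 in BP, 874 in BPI and 407 in CD40. Monocyte/macrophage-like cells held 18.7 in UT, 11.8 and 20.2 in IgG, 28.9 and 27.3 in BP, 73.4 in BPI and 64.9 in CD40. BPI was the highest library in both classes, and the ranges of the classes did not overlap. Within each library the difference on the log2 CPM scale, monocyte/macrophage minus microglia, was negative, with a mean of -3.88 ± 0.77 (SD, n = 7 libraries), and an exact sign-flip permutation test gave p = 0.0156, the smallest that 7 libraries allow. Adjusted over the 9 class pairs tested, that p was 0.0352. Microglia-like cells made up 83.0% of all Il1a UMIs, from 33.6% in BP replicate 1 to 98.3% in IgG replicate 2. In BP replicate 1 monocyte/macrophage-like cells held more, 38.1%, and in UT the classes were close, at 44.3% and 41.9%. Neutrophil-like cells also carried Il1a, 16 UMIs in 62 cells or 141 CPM (95% Poisson interval 80.5 to 229), whereas tumour-like cells pooled 0.308 CPM. These intervals cover counting error only.

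The share of cells with at least 1 Il1a UMI was 65.6% in microglia-like cells (median 6719.5 UMIs per cell) and 14.7% in monocyte/macrophage-like cells (median 6869 UMIs), against 0.383% in T-like cells (median 4327 UMIs), which should lack the transcript. Among cells that reached 1500 UMIs and were thinned to that depth, the shares were 33.9% of 2155, 3.95% of 3492 and 0.0408% of 2453 cells. The contrast between the myeloid classes was thus seen at equal depth, with shallower cells left out.

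Il1b showed the opposite distribution. Pooled over libraries it stood at 10944 CPM in neutrophil-like cells (10344 to 11570), 1996 in mast or basophil-like cells, 499 in monocyte/macrophage-like cells, 168 in dendritic-like cells (254 without BP replicate 1) and 104 in microglia-like cells. Among cells that reached 1500 UMIs and were thinned to that depth, it was found in 95.2% of 42 neutrophil-like cells (20 shallower ones left out), against 36.5% of monocyte/macrophage-like, 7.05% of microglia-like and 0.734% of T-like cells. The neutrophil class held only 62 cells, 27 of them in BP replicate 1, and their median depth of 1684 UMIs per cell was the lowest of the myeloid classes. They nonetheless held 5.75% of all Il1b UMIs, monocyte/macrophage-like cells 77.9% and microglia-like cells 9.92%. The 43 mast or basophil-like cells, 42 of them from BP replicate 1, held 1.28%.

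Il1b levels in monocyte/macrophage-like cells spanned more than 1 order of magnitude between libraries. They were 208 CPM in UT, 390 and 112 in IgG, 377 and 1241 in BP, 1843 in BPI and 216 in CD40. BP and IgG overlapped, and BPI lay above every other library. Microglia-like cells held 106 CPM in UT, 54.3 and 66.8 in IgG, 390 and 114 in BP, 316 in BPI and 81.4 in CD40, so all 5 other libraries lay above both IgG libraries there. Monocyte/macrophage-like cells exceeded microglia-like cells in 6 of 7 libraries, by 1.69 ± 1.26 on the log2 scale (exact permutation p = 0.0312, adjusted 0.0469). BP replicate 1 was the exception, with a difference of -0.05. Of its 107 microglia-like cells, 102 belonged to a cluster led by Crybb1, Cd83, Ly86 and Cd74, which that library all but filled and in which Il1b reached 401 CPM.

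Where Il1b came from therefore differed by library. Monocyte/macrophage-like cells contributed 88.0% of its UMIs in UT, 78.9% in IgG replicate 1, 76.5% in BP replicate 1, 86.8% in BP replicate 2 and 89.8% in BPI, but 20.8% in IgG replicate 2 and 39.9% in CD40. In those last libraries microglia-like cells contributed 70.3% and 49.3%. IgG replicate 2 and CD40 are set B, and they had 708 and 852 microglia-like cells against 63 and 165 monocyte/macrophage-like cells. The CPM in monocyte/macrophage-like cells exceeded that in microglia-like cells in both libraries.

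**Figure D2:**
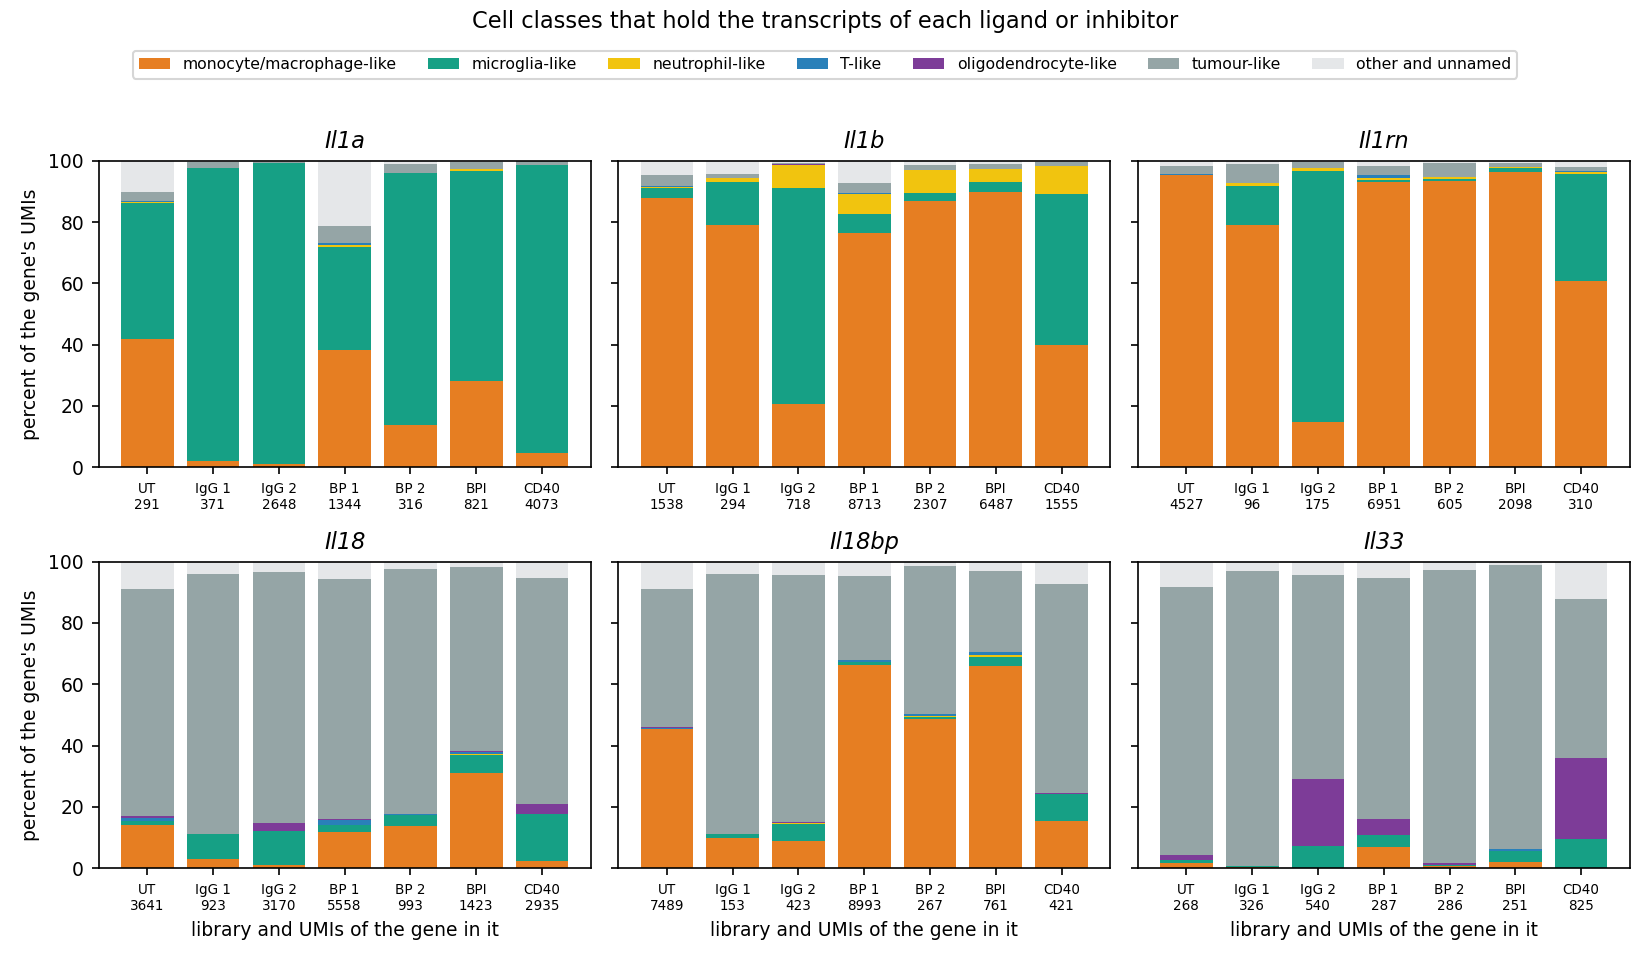
Percent of the UMIs of each ligand or inhibitor held by each cell class, 1 bar per library with the gene's UMIs written under it. Microglia-like cells hold most Il1b in IgG replicate 2 (70.3%), tumour-like cells hold most Il18 in every library, and monocyte/macrophage-like cells hold most Il1rn in every library except IgG replicate 2.

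Il18 was found in tumour-, glia- and myeloid-like cells. Tumour-like cells held 76.3% of its UMIs (60.2% in BPI to 84.8% in IgG replicate 1) because of their number, at a pooled level of only 25 CPM. The level was higher in astrocyte-like (198 CPM, 70 cells) and oligodendrocyte-like cells (141 CPM, 117 cells), and was 56.1 in microglia-like and 55.8 in monocyte/macrophage-like cells. In microglia-like cells it was 116 CPM in UT, 94.3 and 46.5 in IgG, 85.3 and 73.0 in BP, 134 in BPI and 47.6 in CD40. In monocyte/macrophage-like cells it was 78.9 in UT, 48.7 and 24.0 in IgG, 37.5 and 84.3 in BP, 140 in BPI and 23.9 in CD40. BPI was again the highest library in both, and BP overlapped IgG. The difference between the classes, monocyte/macrophage minus microglia, was -0.62 ± 0.54 on the log2 scale, positive in 2 of 7 libraries, and missed the threshold (exact permutation p = 0.0625, adjusted 0.0804). In tumour-like cells Il18 ran from 11 CPM in IgG replicate 1 through 14.2 in BP replicate 2, 18.2 in BPI, 20.8 in CD40, 21.4 in IgG replicate 2 and 38.9 in BP replicate 1 to 46.4 in UT, with IgG and BP overlapping.

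Il33 was a glial and stromal transcript. It stood at 226 CPM in oligodendrocyte-like cells, 143 in 59 cells of a cluster led by the smooth-muscle genes Acta2, Tagln and Myh11, with the fibroblast genes Dcn and Col1a2 also among its top 10, and 55.0 in astrocyte-like cells. The value of the Acta2-led cluster rested on CD40, which gave 72 of its 77 UMIs and without which it was 25.4 CPM, and astrocyte-like cells gave 32.8 CPM without IgG replicate 2. Only CD40 and IgG replicate 2 had at least 20 oligodendrocyte-like cells, and they gave 294 and 273 CPM. Tumour-like cells pooled 3.63 CPM, from 2.02 in BP replicate 1 to 4.93 in BPI, yet through their number they held 74.1% of Il33 UMIs. Oligodendrocyte-like cells held 12.9% overall and 26.4% in CD40. Tumour-like and microglia-like cells did not differ detectably in Il33, with -0.59 ± 1.18 on the log2 scale over 7 libraries (exact permutation p = 0.234, adjusted 0.234), where microglia-like cells had 1 to 79 UMIs per library. With 2 counts rather than 0.5 added before the log the difference was -1.03 and the adjusted p 0.0402.

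Il1rn, the receptor antagonist, was a product of monocyte/macrophage-like cells, which held 92.4% of its UMIs, and of neutrophil-like cells at 731 CPM. The neutrophil value rested on BP replicate 1, which gave 65 of the 83 UMIs, and was 305 CPM without it. In monocyte/macrophage-like cells it stood at 662 CPM in UT, 128 and 19.5 in IgG, 365 and 349 in BP, 639 in BPI and 65.2 in CD40. Both BP libraries, BPI and UT lay above both IgG libraries, and CD40 lay between them. Microglia-like cells held 6.80 CPM in UT, 15.5 and 18.9 in IgG, 32.9 and 9.87 in BP, 51.3 in BPI and 11.6 in CD40, with BP and IgG overlapping. Monocyte/macrophage-like cells exceeded microglia-like cells in 7 of 7 libraries, by 3.43 ± 1.98 on the log2 scale (exact permutation p = 0.0156, adjusted 0.0352). The smallest difference, 0.07, was in IgG replicate 2, where microglia-like cells held 81.7% of the Il1rn UMIs and monocyte/macrophage-like cells 14.9%.

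Il18bp, which binds and neutralises IL-18, was at its highest pooled level in monocyte/macrophage-like cells. Monocyte/macrophage-like cells held it at 521 CPM in UT, 25.2 and 28.5 in IgG, 337 and 80.6 in BP, 159 in BPI and 22.6 in CD40. UT, both BP libraries and BPI lay above both IgG libraries, and CD40 just below them. Microglia-like cells held less, with 45.3 CPM in UT, 2.58 and 3.04 in IgG, 60.6 and 3.95 in BP, 34.2 in BPI and 3.93 in CD40. UT, BP replicate 1 and BPI stood apart there, while BP replicate 2 (2 UMIs, below its limit of 3 counts at 5.92 CPM) and CD40 (37 UMIs) were close to IgG (2 and 23 UMIs). The class difference was 2.99 ± 0.65 on the log2 scale, positive in 7 of 7 libraries (exact permutation p = 0.0156, adjusted 0.0352).

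Tumour-like cells were the other holder of Il18bp, with 37.3% of its UMIs against 54.6% in monocyte/macrophage-like cells. That order rested on BP replicate 1, without which tumour-like cells held 46.9% and monocyte/macrophage-like cells 43.5%. Tumour-like cells also held the larger share in IgG replicate 1 (85%), IgG replicate 2 (80.6%) and CD40 (67.9%), and the shares of the classes were close in UT (45.1% and 45.3%) and BP replicate 2 (48.3% and 48.7%). In BPI monocyte/macrophage-like cells held the larger share, 66.1% against 26.5%. Tumour-like cells held 58.0 CPM in UT and 21.9 in BP replicate 1, and between 1.83 and 4.29 in the other 5 libraries. By counts, with intervals that cover counting error only, UT stood 23.7-fold (21.5 to 26.1) and BP replicate 1 8.94-fold (8.10 to 9.89) above the IgG libraries summed. The summed level of the 10 monocyte/macrophage markers in tumour-like cells moved with it, at 99.7 CPM in UT and 112 in BP replicate 1 against 8.01 to 45.5 elsewhere, and none of the 10 was at 0 in any library. The free RNA estimated from droplets with 1 to 100 UMIs made up 0.162% of the Il18bp UMIs of tumour-like cells in UT and 0.710% in BP replicate 1. Whether the marker transcripts and Il18bp came from the same source was not tested. Endothelial-like cells showed a similar order, with 84.2 CPM in UT, 56.4 in BP replicate 1, 34.3 in BPI, 4.44 in IgG replicate 2 and 2.93 in CD40.

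**Figure D3:**
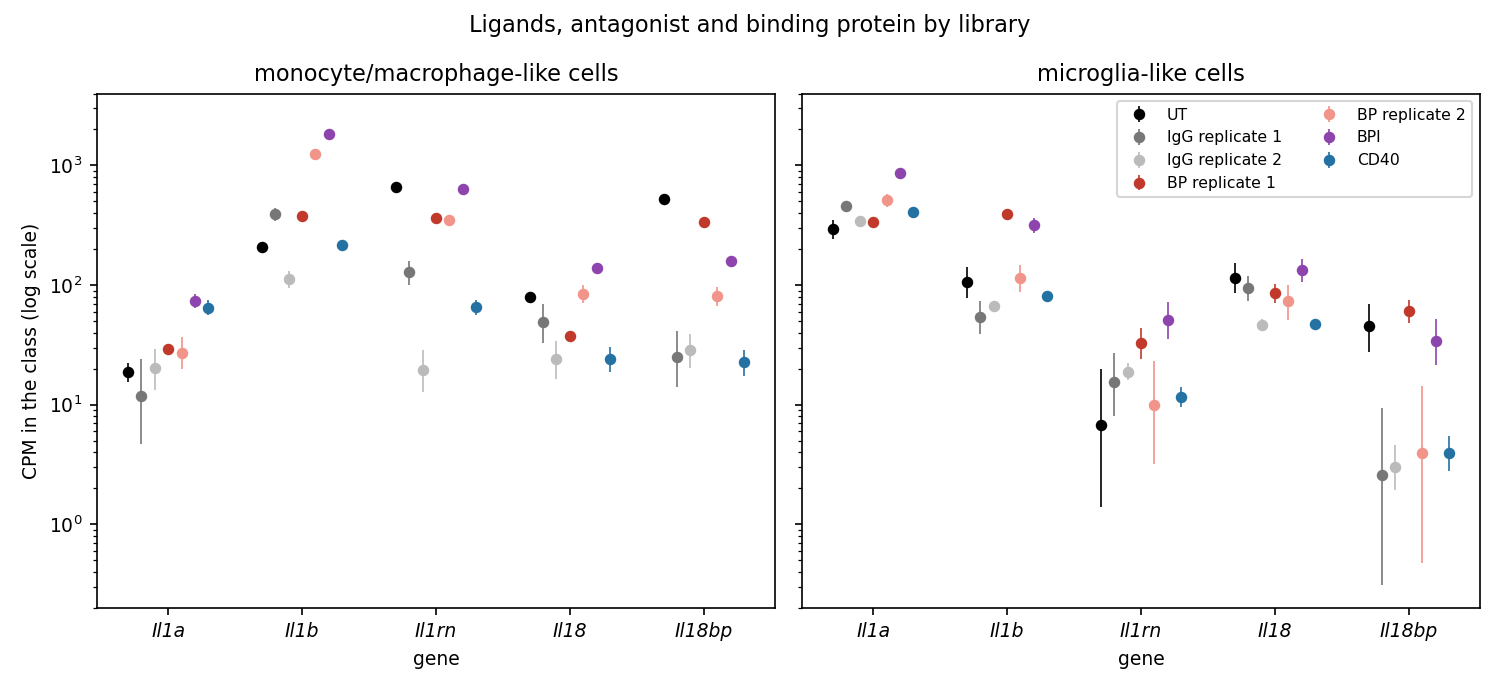
CPM (log axis) of Il1a, Il1b, Il1rn, Il18 and Il18bp in monocyte/macrophage-like and microglia-like cells, 1 point per library with the 95% Poisson interval of its count. The BPI point is the highest for Il1a and Il18 in both classes and for Il1b in monocyte/macrophage-like cells (1843 CPM), while UT is the highest for Il1rn and Il18bp there (662 and 521 CPM).

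The balance of antagonist to agonist was compared between libraries as Il1rn UMIs per Il1b UMI. In monocyte/macrophage-like cells it was 3.19 in UT (95% interval 3.00 to 3.39), 0.328 and 0.174 in IgG, 0.969 and 0.282 in BP, 0.347 in BPI and 0.303 in CD40. The ratio was highest in UT and next in BP replicate 1, and lay between 0.174 and 0.347 in the other 5 libraries. Its absolute size is not read here, since the genes may be captured unequally. The UT barcodes come from another list than those of the other 6 libraries. Whether the genes were captured alike in all libraries was not tested. In microglia-like cells the ratio ran from 0.0638 in UT to 0.286 in IgG replicate 1, and in the neutrophil-like cells of BP replicate 1 it was 0.111. Of monocyte/macrophage-like cells with an Il1b UMI 73.4% also had an Il1rn UMI, against 54.0% of the rest, and deeper cells have more of both. By library these shares ran from 84.2% and 74.0% in UT to 33.3% and 32.3% in CD40 and 18.2% and 12.2% in IgG replicate 2, where 4 cells had both.

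The makeup of the monocyte/macrophage class differed between the libraries, as did these levels. In BP replicate 1, 1648 of its 1808 cells belonged to a cluster led by Ccl8, Ccl24, Chil3, Mrc1 and Arg1, which had 7 cells in the other libraries together. In those libraries the class lay in a second cluster led by Ms4a4c, Cxcl2 and Lyz2. The 160 cells of BP replicate 1 in that second cluster held Il1b at 407 CPM, Il1rn at 153 and Il18bp at 52.9, against 375, 380 and 357 in the Ccl8 cluster. The summed level of 6 inflammatory monocyte genes (Ly6c2, Plac8, Chil3, Vcan, Ccr2 and Hp) was 7110 CPM in UT, 2382 and 376 in IgG, 4602 and 4049 in BP, 7389 in BPI and 464 in CD40. Chil3 is also a leading gene of the Ccl8 cluster of BP replicate 1, and its part in the 4602 CPM was not tested. The summed level of the C1q macrophage genes was 5750 in BPI and 38584 in IgG replicate 2, with the other 5 libraries between. Neutrophil markers in the class summed to 1546 CPM in BP replicate 2 and to 33.7 to 135 elsewhere. Microglia markers in the class summed to 1435 CPM in IgG replicate 2, 847 in CD40 and 620 in IgG replicate 1, and to 141 to 325 elsewhere. The part of these shifts in the member levels was not tested.

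Il1r2, the decoy receptor, was foremost a neutrophil transcript per cell, at 1215 CPM (1021 to 1436) in neutrophil-like cells pooled. In BP replicate 1, the library with enough such cells, it stood at 973 CPM there against 11.9 in monocyte/macrophage-like cells, a single pair with no test. Monocyte/macrophage-like cells held 9.68 CPM in UT, 18.5 and 4.5 in IgG, 11.9 and 40.9 in BP, 41.8 in BPI and 23.6 in CD40, with BP and IgG overlapping.

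T-like cells held 44.5% of all Il1r2 UMIs. This rested on BP replicate 1, which gave 676 of the 755 UMIs, and without that library T-like cells held 11.8% and monocyte/macrophage-like cells 51.6%. The level in T-like cells was 30.4 CPM in UT, 0 in both IgG libraries, 65.6 and 1.35 in BP, 3.83 in BPI and 16 in CD40. The IgG libraries had 39 and 57 T-like cells and 338723 UMIs between them, for which 3 counts over the group make 8.86 CPM. The observed level was 7.41 times that limit in BP replicate 1, 3.43 times in UT and 1.80 times in CD40, where 12 UMIs came from 4 cells. BP replicate 2 (1 UMI) and BPI (7 UMIs) lay below it. These ratios leave out the counting error of the observed level, so they are no lower bounds. Among T-like cells with a Foxp3 UMI, a regulatory T cell gene, 22.7% of 300 had an Il1r2 UMI against 5.54% of 2309 without one. Libraries weigh unequally in that pool, and by library the shares were 24.6% of 224 and 10.5% of 1067 in BP replicate 1, 12.1% of 33 and 5.86% of 239 in UT, 5 of 17 and 1 of 577 cells in BPI, 4 of 14 and 0 of 115 in CD40, and 0 of 9 and 1 of 218 in BP replicate 2. Free RNA was estimated to make up 0.0250% of Il1r2 UMIs in T-like cells. Il1r2 there exceeded the level in monocyte/macrophage-like cells of UT and BP replicate 1, and lay below the 973 CPM in neutrophil-like cells of BP replicate 1. The 10 monocyte/macrophage markers in T-like cells of BP replicate 1 summed to 1732 CPM, with none at 0. Whether any of this Il1r2 came from other cells was not tested.

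Il1r1, the signalling receptor, had its highest pooled levels in vessel- and stroma-like cells. Mural-like cells (95 cells) held it at 244 CPM, endothelial-like cells at 108, the Acta2-led cluster at 51.9, choroid plexus-like cells at 25.4 and tumour-like cells at 7.68. Of the 276 UMIs in mural-like cells 168 came from 18 cells of BP replicate 1, without which the level was 143 CPM. In endothelial-like cells it was 69.5 CPM in UT, 52.4 in IgG replicate 2, 208 in BP replicate 1, 142 in CD40 and 6.87 in BPI, the last from 1 UMI in 20 cells. IgG replicate 1 and BP replicate 2 had 13 and 6 endothelial-like cells and were left out. That left BPI as the only library of set A, and there tumour-like cells had the higher level, at 16.2 CPM. The 4 endothelial clusters differed among themselves, at 388, 103, 33.0 and 3.80 CPM, the first 2 led by Cxcl12 and Slco1a4 and by Igfbp7 and Cldn5, the next by Ubd, Ccl21a and Ackr1, and the lowest by Slco1a4 and Ly6c1 at a median of 2507 UMIs per cell. Endothelial-like exceeded tumour-like cells in 4 of 5 libraries, by 4.58 ± 2.95 on the log2 scale, but 5 libraries cannot reach p under 0.0625, and the exact permutation p was 0.125 (adjusted 0.141).

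Tumour-like cells nevertheless held 70.1% of Il1r1 UMIs, from 19.4% in CD40 to 97.0% in IgG replicate 1, and their level differed between libraries of the same group. It was 23.0 CPM in IgG replicate 1, 21.0 in BP replicate 2 and 16.2 in BPI, all of set A, against 1.26 in IgG replicate 2 and 1.70 in CD40, of set B, 3.61 in BP replicate 1 and 1.10 in UT. By counts set A stood 14.0-fold (12.5 to 15.7, counting error only) above set B. Each of the IgG and BP groups had 1 library at the high and 1 at the low level, and the fit gave 0.03 ± 1.51 (log2, edgeR adjusted p = 1) for BP against IgG. Within set A, BP replicate 2 and BPI lay below IgG replicate 1, and within set B CD40 lay above IgG replicate 2, each with 1 library a group and no test. T-like cells held 0 Il1r1 UMIs in IgG replicate 1 and BPI and up to 38.6 CPM in CD40. None of 940 T-like cells with a Cd8a UMI had an Il1r1 UMI, which allows a share of cells with a UMI of up to 0.319% and sets no limit on cells that express the gene. Without a Cd8a UMI 73 of 1669 cells (4.37%) had one, and in BP replicate 1 the counts were 0 of 503 and 51 of 788 (6.47%).

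Il18r1 was the most uniformly detected lymphocyte member. NK-like cells held it at 336 CPM in UT, 465 in IgG replicate 1, 363 and 447 in BP, 414 in BPI and 446 in CD40, and IgG replicate 2 had 16 NK-like cells and was left out. T-like cells held 191 in UT, 164 and 189 in IgG, 263 and 381 in BP, 352 in BPI and 215 in CD40. All 5 other libraries lay above both IgG libraries in T-like cells, UT only just (191 against 189 CPM in IgG replicate 2). The log2 fold change against IgG was 0.72 ± 0.44 (SE) for BP (edgeR adjusted p = 0.778). It was 1.08 ± 0.51 for BPI, 0.19 ± 0.53 for CD40 and 0.03 ± 0.52 for UT, each 1 library. T-like cells lay below NK-like cells in 6 of 6 libraries, by -0.71 ± 0.50 on the log2 scale (exact permutation p = 0.0312, the smallest 6 libraries allow, adjusted 0.0469). Mast or basophil-like cells held 317 CPM. An Il18r1 UMI was found in 50.7% of 300 T-like cells with a Foxp3 UMI and 53.1% of 2309 without, and the shares were 36.4% and 54.4% in UT and 52.2% and 57.5% in BP replicate 1.

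Il1rl1, the IL-33 receptor, was at its highest per cell in mast or basophil-like cells (404 CPM, 56 UMIs in 43 cells) and, by UMIs, in T-like cells, which held 86.2% of the total and 63.8% without BP replicate 1. Microglia-like cells held 18 of 26 Il1rl1 UMIs in IgG replicate 2 (69.2%) and 42 of 93 in CD40 (45.2%), against 1 and 45 in T-like cells, at a pooled level of 3.19 CPM. T-like cells stood at 14.9 CPM in UT, 16.4 and 4.62 in IgG, 110 and 21.6 in BP, 30.1 in BPI and 59.8 in CD40. Both BP libraries, BPI and CD40 lay above both IgG libraries, which held 3 UMIs in all. By counts the ratio to IgG was 12.4 (4.23 to 60.2) for BP replicate 1, 2.44 (0.698 to 13.1) for BP replicate 2, 3.39 (1.10 to 17.0) for BPI, 6.75 (2.17 to 34) for CD40 and 1.69 (0.523 to 8.66) for UT. These intervals treat each UMI as independent and leave out the spread between cells and between libraries, so they are no test of a treatment. In CD40, 5 cells with a Foxp3 UMI gave 32 of the 45 UMIs. T-like cells exceeded monocyte/macrophage-like cells in 7 of 7 libraries, by 6.17 ± 1.90 on the log2 scale (exact permutation p = 0.0156, adjusted 0.0352). The latter held 8 UMIs in all and 0 in 4 of the 7 libraries, so the size of that difference depends on the count added before the log and was 5.02 with 2 counts, whereas T-like cells had the higher CPM in each library with no count added. In T-like cells with a Foxp3 UMI 39.0% of 300 had an Il1rl1 UMI against 6.54% of 2309 others, at median depths of 5073 and 4204 UMIs per cell. In BP replicate 1 these shares were 45.1% of 224 and 8.06% of 1067 cells, and without that library 21.1% of 76 and 5.23% of 1242. In UT they were 15.2% of 33 and 6.28% of 239 cells, in BPI 5 of 17 cells and 5.20% of 577, in CD40 5 of 14 cells and 6.09% of 115, and in BP replicate 2 1 of 9 cells and 5.05% of 218. The IgG libraries had 2 and 1 T-like cells with a Foxp3 UMI. Mast or basophil markers in the T-like cells of BP replicate 1 summed to 0.388 CPM, with 3 of 6 at 0. The 10 monocyte/macrophage markers there summed to 1732 CPM with none at 0, and over all libraries ran from 904 in CD40 to 3044 in BPI. The part of either list in the Il1rl1 level was not tested.

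**Figure D4:**
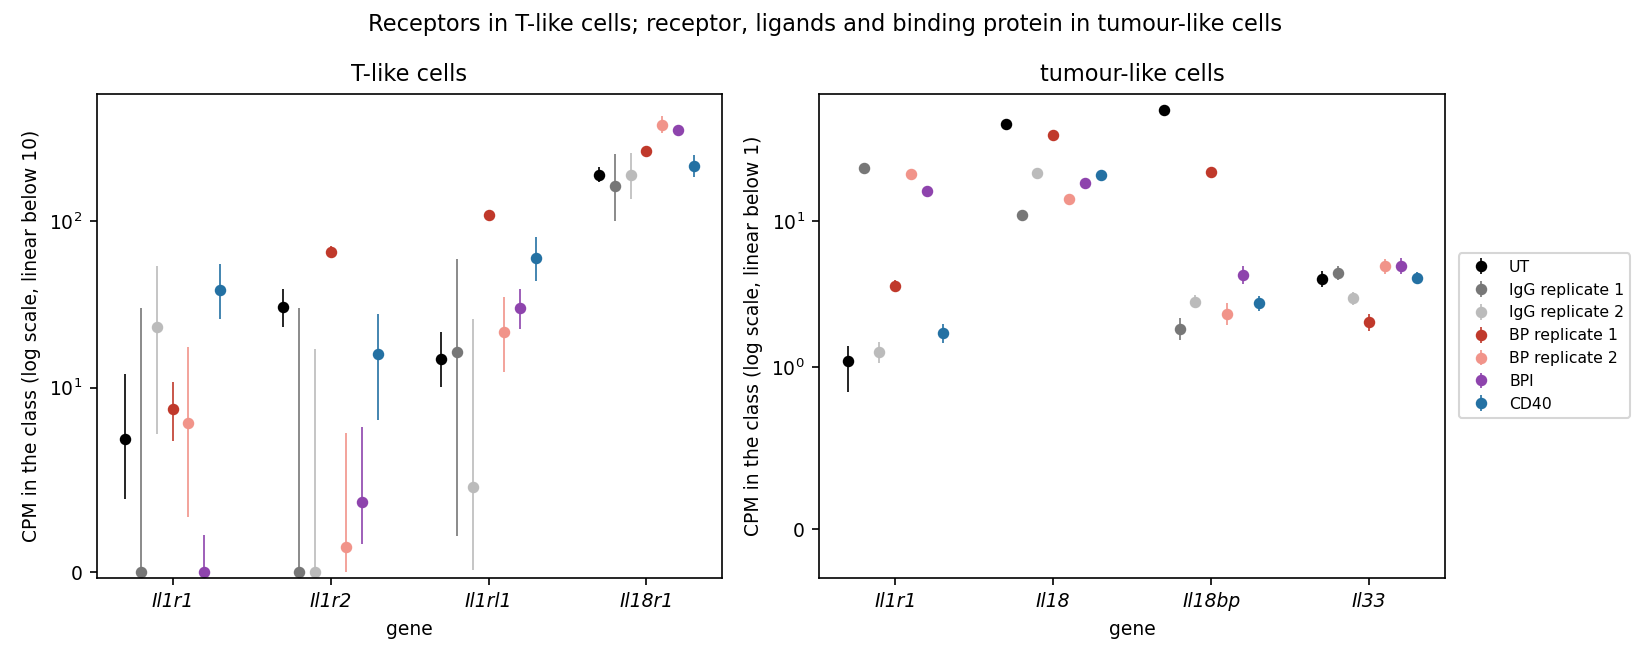
CPM of 4 members in T-like cells (left) and of 4 in tumour-like cells (right), 1 point per library with the 95% Poisson interval, on a log axis that is linear near 0. In T-like cells Il1r2 is at 0 for IgG and at 65.6 CPM for BP replicate 1, and Il1r1 in tumour-like cells is high in IgG replicate 1, BP replicate 2 and BPI only.

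The differences between classes of the same library are set together in the plot of paired class differences. They address where in the tumour each member is made, and 6 of the 9 tested pairs passed an adjusted p of 0.05: Il1a, Il1b, Il1rn and Il18bp between the myeloid classes, Il18r1 between T- and NK-like cells, and Il1rl1 between T- and monocyte/macrophage-like cells. With 1 replicate left out, each of these 6 kept its sign. The p-values of those smaller sets (adjusted 0.05 to 0.0938) say nothing of stability, because p cannot go under 0.0312 with 6 libraries or under 0.0625 with 5.

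**Figure D5:**
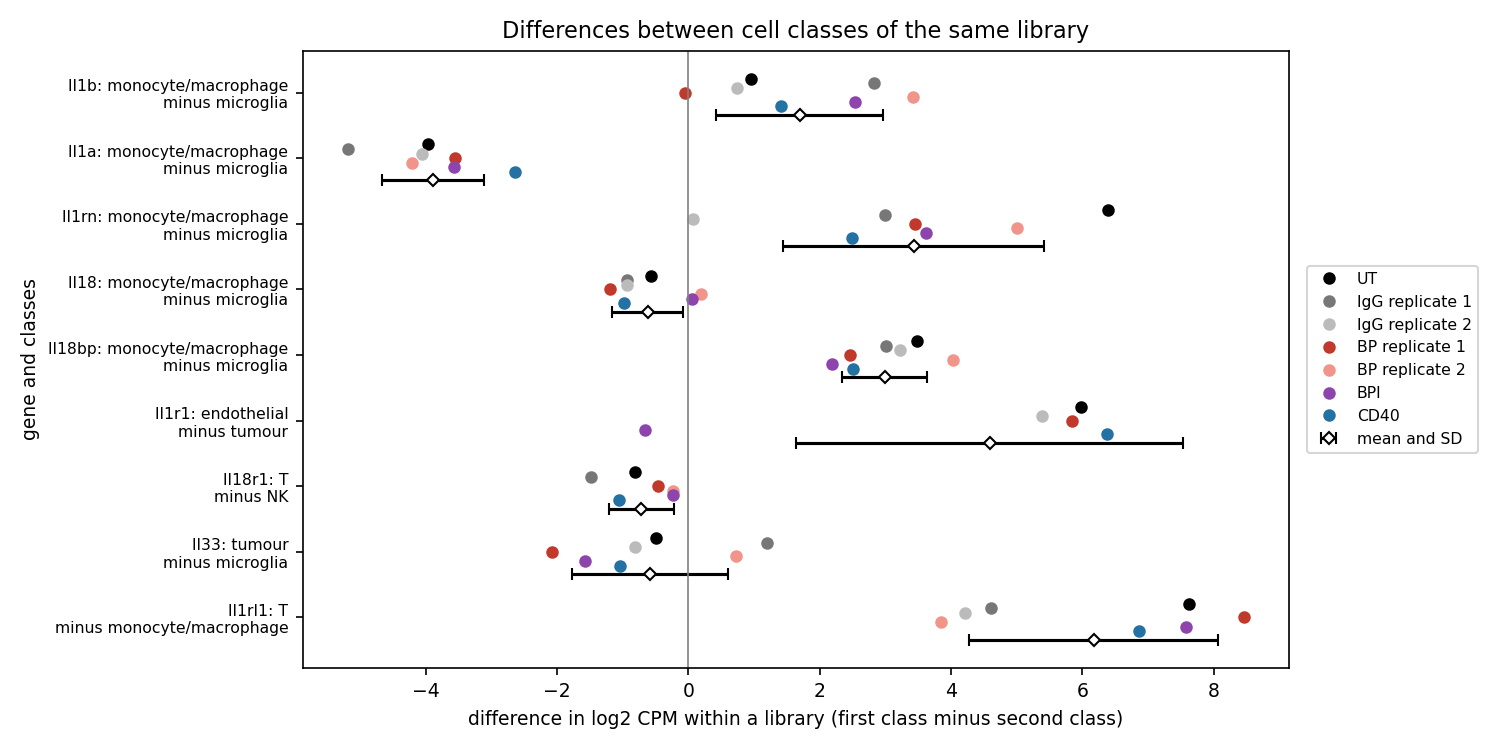
Difference in log2 CPM between the named classes of the same library (first minus second), 1 point per library, with the mean and SD over libraries as a diamond and bar. All 7 points lie left of 0 for Il1a and right of 0 for Il1rn, Il18bp and Il1rl1, while Il33 has points on both sides.

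The treatments were then compared with IgG in T-, microglia-, monocyte/macrophage- and tumour-like cells, with edgeR's quasi-likelihood test on UMIs summed per class and library and Benjamini-Hochberg adjustment over all genes of a class. Of 112 member tests in 16 comparisons, 3 passed an adjusted p of 0.05, all in T-like cells. Among pathway genes (60 coreceptors, other ligands, inflammasome, signalling and IL-1-induced genes) none of 714 tests passed, and 83 had an unadjusted p under 0.05. Those 83 were 21 of 178 for BP, 35 of 178 for BPI, 1 of 178 for CD40 and 26 of 180 for UT, beside 5.77%, 5.02%, 1.02% and 11.9% of all genes. DESeq2 called 3 of 136, 9 of 166, 0 of 218 and 6 of 149 pathway tests in that order, beside 0.695%, 0.456%, 0.00558% and 3.01% of all genes it gave an adjusted p. Among monocyte/macrophage-like cells 38 of 49 pathway genes had a positive log2 fold change for BP, 42 of 49 for BPI, 29 of 49 for CD40 and 31 of 50 for UT, beside 52.7%, 50%, 49% and 50.4% of all genes of that class. The comparisons share the IgG libraries.

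For BP against IgG, 2 of 28 member tests passed. Both were in T-like cells, where 2 of 5 members passed and 1.13% of all 9168 genes did. Il1r2 rose there, from 0 UMIs in both IgG libraries (edgeR adjusted p = 0.0418). Its fitted log2 fold change of 9.41 ± 2.62 depends on the prior count and is no bound. With 0 UMIs in IgG, Il1r2 passed the low-count filter only through other libraries, where it was present, so only a rise could be found. Il1rl1 rose, with a log2 fold change of 2.67 ± 0.76 (SE; edgeR adjusted p = 0.0485). Both calls rested on BP replicate 1, without which the edgeR adjusted p was 0.997 for each and the log2 fold change of Il1rl1 1.24, and both were also lost without IgG replicate 1 or IgG replicate 2. In all, the Il1r2 call was lost in 9 of 11 alternatives and the Il1rl1 call in 10 of 12, among them RLE size factors, a minimum of 2000 UMIs per cell, free RNA subtraction, kept doublets and UT pooled with IgG. The share of T-like cells with a Foxp3 UMI moved with Il1r2, at 17.4% in BP replicate 1, 12.1% in UT and 10.9% in CD40. It was 5.13% and 1.75% in IgG (2 of 39 and 1 of 57 cells), 3.96% in BP replicate 2 and 2.86% in BPI. Depth per cell was unequal. Il1rl1 followed that order only in part, at 110 CPM in BP replicate 1 and 59.8 in CD40, but 14.9 in UT and 30.1 in BPI. The part of the Foxp3 share in the Il1r2 and Il1rl1 calls was not tested. In microglia-, monocyte/macrophage- and tumour-like cells none of 6, 7 and 10 members passed edgeR, as 0%, 0% and 0% of all genes did.

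Over all 4 classes of that comparison, 9 of the 28 had an unadjusted p under 0.05, as 5.77% of all genes did. DESeq2 called 4 of the 20 members it gave an adjusted p, against 0.695% of all such genes: Il1b in microglia- and tumour-like cells and Il18bp and Il1rn in monocyte/macrophage-like cells. In monocyte/macrophage-like cells all 7 members had a positive log2 fold change, with a median of 1.47 against 0.49 for 49 pathway genes and 0.04 for all genes. There Il18bp gave 2.98 ± 0.62 (edgeR adjusted p = 0.254) and Il1rn 2.41 ± 0.78 (edgeR adjusted p = 0.441), from the levels above. With UT pooled into the control these were -0.18 and 0.21, and without BP replicate 1 Il18bp gave 1.77. In microglia-like cells Il1b gave 2.07 ± 0.57 and Il18bp 3.57 ± 1.03 (edgeR adjusted p = 0.524 for both), values that rested on BP replicate 1, without which they were 0.90 and 0.44. Il1b in tumour-like cells gave 5.41 ± 1.12 (edgeR adjusted p = 1), at levels of 0.0563 and 0.0165 CPM in IgG and 2.55 and 0.664 in BP. Free RNA was estimated to make up all of those UMIs in BP replicate 2 and 6.22% in BP replicate 1. The 10 monocyte/macrophage markers in tumour-like cells summed to 15.8 and 8.01 CPM in IgG and 112 and 27.8 in BP, and their part in this value was not tested.

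For BPI against IgG, 0 of 28 member tests passed in edgeR, with 16 at an unadjusted p under 0.05 (5.02% of all genes) and 4 of 25 called by DESeq2 (0.456% of all genes). All genes passed at 0.611% in T-like cells and at 0%, 0% and 0% in microglia-, monocyte/macrophage- and tumour-like cells. The monocyte/macrophage-like cells gave positive values for all 7 members, with a median log2 fold change of 2.67 against 1.37 for the pathway genes and 0 for all genes. Il1rn gave 3.67 ± 0.89 (edgeR adjusted p = 0.166), Il1b 3.40 ± 0.94 (0.226), Il18bp 3.09 ± 0.69 (0.139), Il1a 2.67 ± 0.45 (0.0920), Il1r2 2.57 ± 0.95 (0.372) and Il18 2.51 ± 0.65 (0.195). The ligand, its antagonist, its decoy and both IL-18 genes thus lay on the same side, none past the threshold, and BPI is 1 library. With UT pooled into the control Il18bp turned to -0.070. DESeq2 called Il1a, Il1rn and Il18bp there and Il1b in tumour-like cells, where free RNA was estimated to make up 99% of its UMIs in BPI and the monocyte/macrophage markers summed to 45.5 CPM. Without BP replicate 2, which lends only its spread to this comparison, edgeR called 8 of 29, when 1.37% of all genes passed. In T-like cells Il1r1 had 0 UMIs in BPI against 0 and 5 in IgG (edgeR adjusted p = 0.0806).

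For CD40 against IgG, 0 of 28 passed in edgeR and 0 of 40 in DESeq2 (0.00558% of all genes), and 3 had an unadjusted p under 0.05 with either tool (1.02% of all genes in edgeR). All genes passed at 0.131% in T-like cells and at 0%, 0% and 0% in the other classes. The 3 were Il1a in monocyte/macrophage-like cells (1.98 ± 0.45, edgeR adjusted p = 1), Il1rl1 in T-like cells (2.64 ± 0.84, edgeR adjusted p = 0.456) and Il1r2 in T-like cells (12 UMIs against 0, edgeR adjusted p = 0.913). Of the members in monocyte/macrophage-like cells, 5 of 7 had negative values, with a median of -0.21. Il1b, Il1rn and Il18bp there gave values closer to 0 than their SE (-0.21 ± 0.97, -0.13 ± 0.92 and -0.25 ± 0.74), and Il1b and Il1rn lay between the IgG libraries. The IgG libraries lay far apart, and IgG replicate 2 is the one in set B with CD40. Against it CD40 was higher for Il1b (216 against 112 CPM) and Il1rn (65.2 against 19.5) and lower for Il18bp (22.6 against 28.5). Each side of that comparison is 1 library, with no test.

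For UT against IgG, 1 of 28 passed: Il1r2 rose in T-like cells, where 2.79% of all genes passed (59 UMIs against 0, edgeR adjusted p = 0.0216). That call was lost in 7 of 10 alternatives: without either IgG library, without BP replicate 1, with RLE size factors, DESeq2 or kept doublets, and with a minimum of 2000 UMIs per cell. Over all 10 alternatives the log2 fold change of Il1r2 ran from 4.68 to 9.66, a size that depends on the prior count. As for BP, only a rise could be found, since Il1r2 passed the low-count filter only through libraries outside IgG. The share of T-like cells with a Foxp3 UMI, 12.1% in UT against 5.13% and 1.75% in IgG, moved with Il1r2, and its part in the call was not tested. In monocyte/macrophage-like cells 0.233% of all genes passed and none of 7 members in edgeR, although Il18bp gave 4.61 ± 0.71 (edgeR adjusted p = 0.0509) and Il1rn 3.54 ± 0.87 (edgeR adjusted p = 0.160), while Il1b gave 0.07 ± 0.94. Il18bp passed in 8 of 10 alternatives (log2 fold changes of 4.44 to 4.70, adjusted p 3.90e-14 to 0.0561 in edgeR or DESeq2) and Il1rn in 5 of 10 (2.70 to 5.45, adjusted p 1.47e-07 to 0.378). Both inhibitors thus lay above IgG in UT, where Il1b, at 208 CPM, lay between the IgG libraries. None of the members passed in microglia- or tumour-like cells, where 0% and 0% of all genes did. In all, 8 of 28 member tests had an unadjusted p under 0.05, as 11.9% of all genes did. DESeq2 called 5 of 20 members, against 3.01% of all genes: Il18bp and Il1rn in monocyte/macrophage-like cells, and Il18bp, Il1b and Il1rn in tumour-like cells. The 10 monocyte/macrophage markers in tumour-like cells summed to 99.7 CPM in UT against 15.8 and 8.01 in IgG, and their part in those 3 calls was not tested. UT is the only untreated library and its barcodes come from another list than those of the other 6.

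Partners of the members had related but not identical distributions. Il1rap, the coreceptor, pooled 766 CPM in neutrophil-like, 335 in oligodendrocyte-like, 70.3 in tumour-like and 58.2 in monocyte/macrophage-like cells, so tumour-like cells carried it beside Il1r1. Il18rap, the second IL-18 receptor chain, pooled 764 CPM in mast or basophil-like, 453 in NK-like, 387 in neutrophil-like and 147 in T-like cells. In T-like cells it was 84.5 CPM in UT, 81.9 and 64.6 in IgG, 147 and 203 in BP, 207 in BPI and 136 in CD40. Nlrp3, the inflammasome sensor, pooled 1030 CPM in neutrophil-like, 215 in microglia-like and 78.1 in monocyte/macrophage-like cells, and was at 236 CPM in the latter in BPI against 32.4 to 174 in the other libraries. Pycard, the inflammasome adaptor, pooled 483 in microglia-like and 292 in monocyte/macrophage-like cells. Casp1, the protease that matures IL-1β and IL-18, pooled 123 in neutrophil-like and 85.7 in monocyte/macrophage-like cells. None of these 5 passed edgeR in any comparison.

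Across 58 sums (16 classes, 7 libraries) the genes most like Il1b in log2 (CPM + 1) were Acod1, Igsf6 and Ccl6 (Pearson r 0.91, 0.90 and 0.88). Those most like Il1rn were Il1b (0.88), Spi1 (0.86) and Wfdc17 (0.86), those most like Il18bp were Cfb (0.84), Batf2 (0.79) and Ly6i (0.79), and those most like Il33 were Elavl3 (0.80), Pcdh9 (0.75) and Fgfr2 (0.75). The sums share libraries and depth, and the values are descriptions among 7690 genes. In the genome (GRCm38) the 4 receptors sit together on chromosome 1, in the order Il1r2 (40074079-40125231), Il1r1 (40225080-40317257), Il1rl1 (40429570-40465415) and Il18r1 (40465552-40500854), all on the plus strand. Il1rl1 and Il18r1 lie 0.137 kb apart, and T-like cells carried both, whereas Il1r1 lay on vessels and tumour-like cells and Il1r2 on neutrophil-, T- and monocyte/macrophage-like cells. Il18 lies on chromosome 9 (50554827-50581840, plus strand), Il18bp on chromosome 7 (102014885-102018690, minus strand) and Il33 on chromosome 19 (29925114-29960718, plus strand).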

How the data were processed

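The authors deposited raw UMI counts per gene and barcode for each library (unfiltered matrices). Cell Ranger 7.0.1 and mm10 are named in the submitters' processing notes, while the file headers record Cell Ranger 4. The members and gene lists were chosen with earlier results of these data known.

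A barcode counted as a cell from 1000 UMIs and 500 genes, unless mitochondrial UMIs exceeded 15%. Scrublet removed doublets (scanpy 1.11.5) at 0.8% per 1000 cells, cells were scaled to 10000 counts and clustered (30 components, 15 neighbours, Leiden resolution 1), and clusters were named from marker lists. Free RNA was estimated from droplets of 1 to 100 UMIs. Counts were summed per class and library (at least 20 cells). IgG, BP, BPI and CD40 were tested in 1 fit, UT against IgG with all 7 libraries, in edgeR 4.0.16 (TMM, low-count filter, R 4.3.3), and again in DESeq2 1.42.0. Class pairs used log2 CPM with 0.5 counts added and an exact two-sided sign-flip test, adjusted over 9 pairs. Members were all named. Pathway genes were to be named where edgeR called them (none was), besides Il1rap, Il18rap, Nlrp3, Pycard and Casp1. The genes most like 4 members had a mean of at least 20 CPM. Alternatives were other normalisation, filters, controls, cells, added counts and left-out replicates. The tests were checked on simulated data.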

Additional observations from a re-analysis of the deposited data

How the results depend on the processing

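With DESeq2 the members called numbered 4 of 20 for BP, 4 of 25 for BPI and 5 of 20 for UT, beside 0.695%, 0.456% and 3.01% of all genes. In edgeR the members called numbered 2, 0 and 1 of 28, beside 0.201%, 0.108% and 0.561% of all genes. Without a filter on low counts they were 7, 8 and 4 of 40, when 0.943%, 0.905% and 1.27% of all genes were called. RLE size factors gave 0 for BP and 0 for UT (0.0949% and 0.38% of all genes). A minimum of 2000 UMIs per cell gave 0 and 0 (0.0431% and 0.135% of all genes). With free RNA subtracted the counts were 0 for BP and 2 for UT (0.148% and 0.533% of all genes). Pooling UT with IgG or keeping doublets gave 0 for BP (0% and 0.00174% of all genes). CD40 had 0 in each of its 11 alternatives. With 1 replicate left out the count ran from 0 to 5 for BP, 0 to 8 for BPI (7 without IgG replicate 1, 1 without BP replicate 1 and 8 without BP replicate 2) and 1 to 5 for UT, and the share of all genes called from 0.12% to 2.31%, 0.125% to 1.37% and 0.281% to 3.29%.

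The replicate block gave 0 calls for BP (0.14% of all genes). Same-numbered libraries did not deviate together (correlation -0.05 in T-, -0.06 in microglia-, -0.23 in monocyte/macrophage- and -0.80 in tumour-like cells). A crossed replicate block, chosen after seeing the data, gave 3 of 20 (1.46% of all genes). Both used the 4 IgG and BP libraries only.

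Leaving out 1 replicate, the class differences (log2) ranged from 1.40 to 1.98 for Il1b, -3.94 to -3.67 for Il1a, 3.17 to 3.99 for Il1rn, 2.81 to 3.07 for Il18bp, -0.81 to -0.56 for Il18r1 (IgG replicate 2 was never in that pair) and 5.79 to 6.56 for Il1rl1. With 2 counts added Il33 gave -1.03 and passed. With UT pooled into the control the sign turned for Il1r2 in T-like cells of CD40 (-0.20), Il18bp in monocyte/macrophage-like cells of BP (-0.18) and BPI (-0.070) and Il1rn in tumour-like cells of BPI (-0.080). For member tests with an unadjusted p under 0.05 in edgeR, 302 log2 fold changes under alternatives kept their direction and side of the threshold. Among the rest, 60 newly passed, 26 no longer passed and 4 turned sign. The sign turns listed above are those 4. Fold changes of the other member tests were not counted, so these numbers and the listed sign turns do not cover them. Pooled levels with 1 library left out, given beside those levels, were also chosen after seeing the data. Without BP replicate 1, left out after seeing the data, T-like cells held 11.8% of Il1r2 and monocyte/macrophage-like cells 43.5% of Il18bp; leaving out 1 IgG or BP replicate these shares ranged from 11.8% to 47.2% and 43.5% to 55.7%. Without doublet removal tumour-like cells held 74.0% of Il18. The cause of these shifts was not tested. The IgG libraries had 39 and 57 T-like and 78 and 63 monocyte/macrophage-like cells, which limits the depth of those comparisons.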
